A study of Saccharomyces cerevisiae S288C with 9 samples.

Results

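Set1 S228E was compared directly with Set1 S228A, so that the strains carried different amino acids at 1 residue of the same protein. The comparison used 6 of the 9 RNA sequencing libraries of the study, 3 from cells whose genotype is Set1 S228E and 3 from cells whose genotype is Set1 S228A. The other 3 libraries, from the wild type (WT), are shown beside them. All the cells were budding yeast (Saccharomyces cerevisiae) of strain S288C, taken in mid-log growth in YPD, a rich medium with glucose, with no treatment, and total RNA was measured. The genotype labels give the substitution alone, and mating type, other markers and the number of clones per genotype were not stated there. Every one of the 7127 rows of the deposited count table was considered, and 6133 rows had enough counts to be tested. The 6 libraries held 14455017 to 19213414 counts each. Levels are TMM-normalized counts per 1e6 counts of the library (CPM), and each log2 fold change is S228E minus S228A ± its standard error. A row was called where the Benjamini-Hochberg adjusted p of edgeR's quasi-likelihood test was under 0.05 and the fold change over 1.5, the thresholds of the series' design text.

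Set1 is the methyltransferase of COMPASS, a complex that methylates lysine 4 of histone H3, a mark found at the start of transcribed genes. Serine can be phosphorylated. Alanine cannot take a phosphate, and the negative charge of glutamate can stand in for that of phosphoserine. Haploid yeast of either mating type secretes a peptide pheromone that the other type senses through a receptor, a G protein and a cascade of MAP kinases ending in the transcription factor Ste12. The response switches on genes of agglutination, cell fusion and nuclear fusion, and the inhibitor Far1 halts the cell cycle in G1. In dividing cells the factors SBF and MBF switch on genes of the G1/S transition, and forkhead factors switch on mitotic genes.

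The substituted residue lies in the first part of the 1080-codon reading frame of SET1 (YHR119W, chromosome VIII, 346043 to 349285, + strand). The reference genome (RefSeq, R64 assembly, whose coordinates match those of the sacCer3 rows) has the serine codon TCA for this residue, at 346724 to 346726. The stretch around it is shown with that codon in capitals, since it is the only coding difference that the genotype labels name.
SET1 codon of S228, chrVIII:346694-346756: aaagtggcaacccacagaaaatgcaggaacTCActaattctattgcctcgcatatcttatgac
The transcript itself was at 216, 182 and 211 CPM in S228A replicates 1, 2 and 3, and at 236, 207 and 213 CPM in those of S228E. These ranges overlapped, and the log2 fold change was 0.11 ± 0.08 (adjusted p = 0.352 by edgeR), with a 95% interval of -0.05 to 0.27. Since counts per gene cannot show a missense codon, these values are no check of the labels. Of the 8 genes for subunits of COMPASS, 0 passed both thresholds in edgeR, DESeq2 or limma-voom, and 3 had an unadjusted p under 0.05 in edgeR. SPP1, the PHD finger subunit, was at log2 0.35 ± 0.08 (adjusted p = 0.00712 by edgeR), with its S228E libraries all above those of S228A but the fold under 1.5. SHG1, a small subunit, was at log2 -0.48 ± 0.17 (adjusted p = 0.0484 by edgeR), and SDC1 at 0.31 ± 0.11 (adjusted p = 0.0528 by edgeR). BRE2 was at log2 0.16 ± 0.09, SWD3 at 0.17 ± 0.14, SWD1 at 0.09 ± 0.08 and SWD2 at -0.05 ± 0.08. SWD2 moved to 0.0027 without S228A replicate 3.

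Of the 6133 rows tested, 680 were called, which is 11.1% of them: 413 were higher in S228E (6.73%) and 267 lower (4.35%). The median log2 fold change was 0.98 over the higher rows and -1.09 over the lower rows, against -0.0042 over all rows tested. By more than 16-fold, 23 rows were lower and 6 were higher. The 23 include rows with almost no counts in S228E, such as PRM6 and the tRNA row tR(UCU)G3. Their lower calls were close to fixed by the count filter, as set out below, so these counts are not compared. Among the called rows, the 3 S228E libraries lay entirely above the 3 S228A libraries for 410 of 413 and entirely below for 265 of 267. The same separation held for 22.7% of all rows tested in the upward direction and for 22.2% in the downward one. The WT mean of log CPM lay nearer to S228E than to S228A for 672 of the 680 called rows. The share of all rows tested with WT nearer to S228E was not counted. WT was no part of this contrast, though all 9 libraries shared 1 estimate of spread. By the same thresholds, S228A against WT called 747 rows (12.2%), while S228E against WT called 3 (0.0489%). These comparisons share the libraries of each strain. In a principal component analysis of log CPM, component 1 took up 74.2% of the variance, with S228A at one end and S228E and WT at the other.

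**Figure D1:**
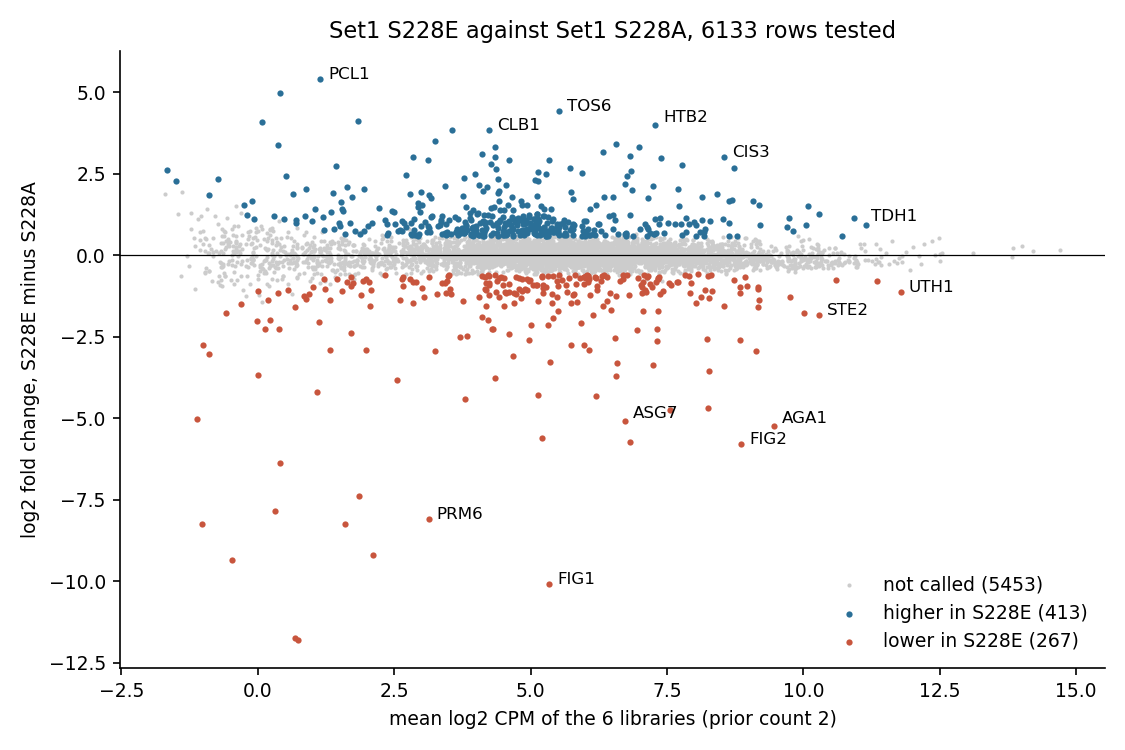
Log2 fold change of S228E minus S228A (vertical axis) against the mean log2 CPM of the 6 libraries (horizontal axis) for the 6133 rows tested; blue points are the 413 rows called higher in S228E, red points the 267 called lower and grey points the rest. The rows lowest on the plot are mating genes such as FIG1 at -10.07 and PRM6 at -8.10, with transposon and tRNA rows, and those at the top include the G1 cyclin gene PCL1 at 5.42 and the histone gene HTB2 at 4.0. PRM6 and some of the transposon and tRNA rows passed the count filter through S228A, so their lower calls were close to fixed.

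Many genes of the mating response were lower in S228E, though not all members of any of its lists but that of a-cell genes. Counts in all the mating lists are to be read beside the 6.73% of all rows called higher and the 4.35% called lower. A single call in a list is not read as a result about that list. STE2, the receptor for alpha-factor, was at 2258, 2262 and 2512 CPM in the S228A libraries and at 653, 679 and 655 CPM in the S228E libraries. The S228A values were all above the S228E values, and the log2 fold change was -1.82 ± 0.10 (adjusted p = 1.82e-08 by edgeR). Of the 9 tested genes of the receptor and G protein list, 4 were called lower in S228E and 0 higher. GPA1, the G protein alpha subunit, was at 195, 214 and 206 CPM in S228A and 102, 84.4 and 93.3 CPM in S228E, a log2 fold change of -1.14 ± 0.09 (adjusted p = 4.45e-07 by edgeR). SST2, which stimulates the GTPase of Gpa1 and so ends signalling, was at 687, 767 and 735 CPM and 126, 123 and 124 CPM, a log2 fold change of -2.55 ± 0.09 (adjusted p = 2.63e-10 by edgeR). AFR1, needed for the mating projection and for receptor adaptation, was at 239, 402 and 197 CPM and 50.5, 57.7 and 63.3 CPM, a log2 fold change of -2.29 ± 0.23 (adjusted p = 6.69e-06 by edgeR). None of these genes had overlapping groups, and AFR1 was highest in S228A replicate 2. STE4, the beta subunit, and STE18, the gamma subunit, stayed under the 1.5-fold threshold at log2 -0.43 ± 0.07 and -0.30 ± 0.10.

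Downstream, 7 of the 15 tested genes of the MAP kinase cascade and its transcription factors were called lower and 0 higher. FUS3, the MAP kinase of the pheromone response, was at 280.1, 284 and 312 CPM in the S228A libraries and 92.9, 87 and 88.7 CPM in the S228E libraries, a log2 fold change of -1.71 ± 0.10 (adjusted p = 4.57e-08 by edgeR). FAR1, the inhibitor that holds cells in G1, was at 205, 302 and 226 CPM in S228A and 78.3, 72.4 and 73.8 CPM in S228E, a log2 fold change of -1.71 ± 0.12 (adjusted p = 3.19e-07 by edgeR). The groups did not overlap for either gene. KSS1, the MAP kinase of filamentous growth, was lower by less, at log2 -0.66 ± 0.09 (adjusted p = 0.00012 by edgeR). DIG2, a repressor of Ste12, was at log2 -1.19 ± 0.10 (adjusted p = 1.94e-06 by edgeR), while its paralog DIG1 was at 0.00 ± 0.07. TEC1, the partner of Ste12 in filamentous growth, was at log2 -1.45 ± 0.24 (adjusted p = 0.000582 by edgeR), and the phosphatase gene MSG5 at -0.89 ± 0.15 (adjusted p = 0.000552 by edgeR). The upstream kinases of the cascade were not called: STE11 was at log2 -0.16 ± 0.10, STE7 at -0.31 ± 0.10 and the kinase gene STE20 at -0.15 ± 0.07. The scaffold gene STE5 was at -0.26 ± 0.07. STE12 itself was at 112, 173 and 120.1 CPM in S228A and 90.4, 89.1 and 89.9 CPM in S228E. S228A replicate 2 stood above the other S228A libraries, and the call, at log2 -0.59 ± 0.15 (adjusted p = 0.00882 by edgeR), was lost without it (log2 -0.38, edgeR adjusted p = 0.0199, under the fold threshold).

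All 7 tested genes made by cells of mating type a were called lower in S228E, with a median log2 fold change of -2.60 against -0.0042 over all rows. ASG7, whose product acts in the mating zygote, was at 574, 676 and 608 CPM in S228A and at 16.2, 19.3 and 19.1 CPM in S228E, a log2 fold change of -5.09 ± 0.12 (adjusted p = 1.50e-11 by edgeR). MFA1 and MFA2 encode the a-factor pheromone. MFA1 was at 1554, 1303 and 1849 CPM in S228A and 173, 233 and 209 CPM in S228E, and the log2 fold changes were -2.94 ± 0.18 (adjusted p = 7.14e-08 by edgeR) for MFA1 and -1.59 ± 0.12 (adjusted p = 3.24e-07 by edgeR) for MFA2. BAR1, the protease that degrades alpha-factor, was at 1024, 1122 and 1219.7 CPM and 181, 185 and 190.4 CPM, a log2 fold change of -2.60 ± 0.11 (adjusted p = 1.98e-09 by edgeR). The a-factor exporter STE6 was at log2 -1.09 ± 0.07 (adjusted p = 1.56e-07 by edgeR). In each of these genes the S228A values all exceeded the S228E values. The a-cell markers were present in all 6 libraries, and STE3, the receptor of cells of mating type alpha, was low at 3.20, 2.94 and 2.97 CPM in S228A and 2.67, 2.31 and 2.50 CPM in S228E. MF(ALPHA)1, the major alpha-factor gene, lay under 1 CPM in all 6 libraries. Of the 5 tested alpha-cell genes, 2 were called lower: SAG1, the alpha-agglutinin, at log2 -1.68 ± 0.13 (adjusted p = 6.49e-07 by edgeR), and MF(ALPHA)2 at -1.19 ± 0.19 (adjusted p = 0.000379 by edgeR). MATALPHA1, which defines alpha cells, had 0 counts in all 9 libraries, as had its identical silent copy HMLALPHA1. The counting left out reads that fit both copies, so these values do not tell the mating types apart. The 6 alpha-cell markers together held 155.16 to 227.99 CPM in the S228A libraries and 72.5 to 72.9 CPM in the S228E libraries, and without SAG1 34.0 to 40.5 and 21.0 to 24.7 CPM. The 7 a-cell markers together held 7565 to 9037 CPM in S228A and 1623 to 1767 CPM in S228E. The part of other cell types in these results was not tested. Among the enzymes that mature a-factor, AXL1 was at log2 -0.87 ± 0.07 (adjusted p = 4.71e-07 by edgeR) and STE14 at -0.71 ± 0.09 (adjusted p = 4.25e-05 by edgeR), both lower, whereas RCE1, the protease that trims the prenylated end, was higher at log2 1.03 ± 0.10 (adjusted p = 5.36e-06 by edgeR).

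Agglutination and cell fusion held FIG1, the protein-coding gene with the greatest fold in either direction. Of 13 tested members, 9 were called lower and 1 higher, with a median of -3.55. FIG1 (YBR040W, chromosome II, 316968 to 317864), an integral protein of the mating projection, was at 1287, 1187 and 1352 CPM in the S228A libraries and at 1.06, 1.07 and 1.46 CPM in the S228E libraries. The groups lay far apart, at log2 -10.07 ± 0.28 (adjusted p = 6.05e-11 by edgeR), and the WT libraries held 0.818, 2.58 and 0.572 CPM. FIG2, a cell wall adhesin of mating cells, was at 2997, 4006 and 3439 CPM in S228A and 63.8, 58.9 and 65.1 CPM in S228E, a log2 fold change of -5.80 ± 0.21 (adjusted p = 3.64e-10 by edgeR). The gene AGA1, which anchors a-agglutinin to the wall, was at 4157, 4628 and 4300.3 CPM and 113, 109 and 121 CPM, a log2 fold change of -5.25 ± 0.20 (adjusted p = 7.54e-10 by edgeR), and its partner AGA2 was at log2 -3.55 ± 0.15 (adjusted p = 1.31e-09 by edgeR). Both groups were tight for FIG2 and AGA1 relative to the gap between them. PRM1 (YNL279W, chromosome XIV, 110917 to 112902), which acts in plasma membrane fusion, was at 728, 918 and 828 CPM in S228A and 16, 13.9 and 16.9 CPM in S228E, a log2 fold change of -5.72 ± 0.20 (adjusted p = 3.32e-10 by edgeR). FUS1, a fusion scaffold of the membrane, was at 269.7, 515 and 260.5 CPM and 23.2, 28.2 and 29.5 CPM, a log2 fold change of -3.69 ± 0.26 (adjusted p = 2.60e-07 by edgeR). FUS2, its cytoplasmic partner in fusion, was at 200.3, 392 and 195 CPM and 4.79, 5.70 and 5.62 CPM, a log2 fold change of -5.62 ± 0.28 (adjusted p = 9.12e-09 by edgeR). For FUS1 and FUS2 the value of S228A replicate 2 was over 1.5 times those of replicates 1 and 3, and all 3 exceeded every S228E value. The member that was higher in S228E was SPA2, a polarity scaffold used in bud growth as well as mating, at log2 0.92 ± 0.08 (adjusted p = 1.15e-06 by edgeR).

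In nuclear fusion, 6 of 16 tested genes were called lower and 3 higher. KAR4, a transcription factor that acts with Ste12, was at 247, 402 and 265 CPM in S228A and 29.7, 32.4 and 31.2 CPM in S228E, a log2 fold change of -3.29 ± 0.19 (adjusted p = 3.05e-08 by edgeR). PRM2 and PRM3, membrane proteins of nuclear fusion, were at log2 -4.30 ± 0.13 (adjusted p = 1.08e-10 by edgeR) and -4.28 ± 0.13 (adjusted p = 8.62e-11 by edgeR), and KAR5, of the nuclear envelope, was at -2.76 ± 0.13 (adjusted p = 4.42e-09 by edgeR). The kinesin KAR3 and its light chain CIK1 were lower, at log2 -1.20 ± 0.15 (adjusted p = 3.99e-05 by edgeR) and -2.08 ± 0.19 (adjusted p = 3.60e-06 by edgeR). VIK1, the other light chain of Kar3, which serves in mitosis, was higher in S228E at log2 0.86 ± 0.16 (adjusted p = 0.00112 by edgeR), and the spindle pole body gene MPS3 was higher at 0.90 ± 0.10 (adjusted p = 1.80e-05 by edgeR). Among other membrane proteins named for regulation by pheromone, 5 of 7 were lower and 0 higher. PRM6 (YML047C, chromosome XIII, 180017 to 181075), a potassium transporter, was at 109.8, 179 and 113 CPM in S228A and under 1 CPM in all S228E libraries, at 0.404, 0.339 and 0.763 CPM. Its log2 fold change was -8.10 ± 0.29. With few counts in S228E, and 0.358, 0.117 and 0.40 CPM in WT, PRM6 passed the count filter through S228A. A lower call was thus close to fixed for PRM6 and is not read as a result, though it is among the 5 counted. PRM8 was at log2 -3.38 ± 0.10 (adjusted p = 1.08e-10 by edgeR), PRM5 at -2.62 ± 0.24 (adjusted p = 2.70e-06 by edgeR) and PRM4 at -2.55 ± 0.28 (adjusted p = 1.61e-05 by edgeR). PRM7 and PRM9 lay on the other side of 0 without a call, at log2 0.50 ± 0.12 and 0.53 ± 0.15. The list of haploid-specific genes, which shares members with the lists above, had 5 of 12 lower and 1 higher. The 1 higher is close to the 6.73% of all rows called higher.

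The 3 S228A libraries were not alike in how high these genes stood. Among the 267 rows called lower in S228E, S228A replicate 2 held the highest S228A value for 128, replicate 3 for 71 and replicate 1 for 68. The median ratio of replicate 2 to the higher of replicates 1 and 3 was 0.994 there. Replicate 2 was highest for 6 of 6 called genes in nuclear fusion, 5 of 5 other PRM genes and 7 of 9 in agglutination and fusion. Among the a-cell genes it was highest for 1 of 7. The median ratios were 1.39, 1.58, 1.15 and 0.9 in that order. Among the 413 rows called higher, replicate 2 was highest for 143 and replicate 3 for 163. The chi-square per gene between S228A replicates was 38.95 (1 and 2), 49.97 (2 and 3) and 12.44 (1 and 3). The share over all rows tested was not counted, so whether the pattern is particular to these genes was not tested. Without S228A replicate 2, 612 of the 680 calls remained, as many as without S228A replicate 1 and close to the 609 without S228E replicate 1.

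**Figure D2:**
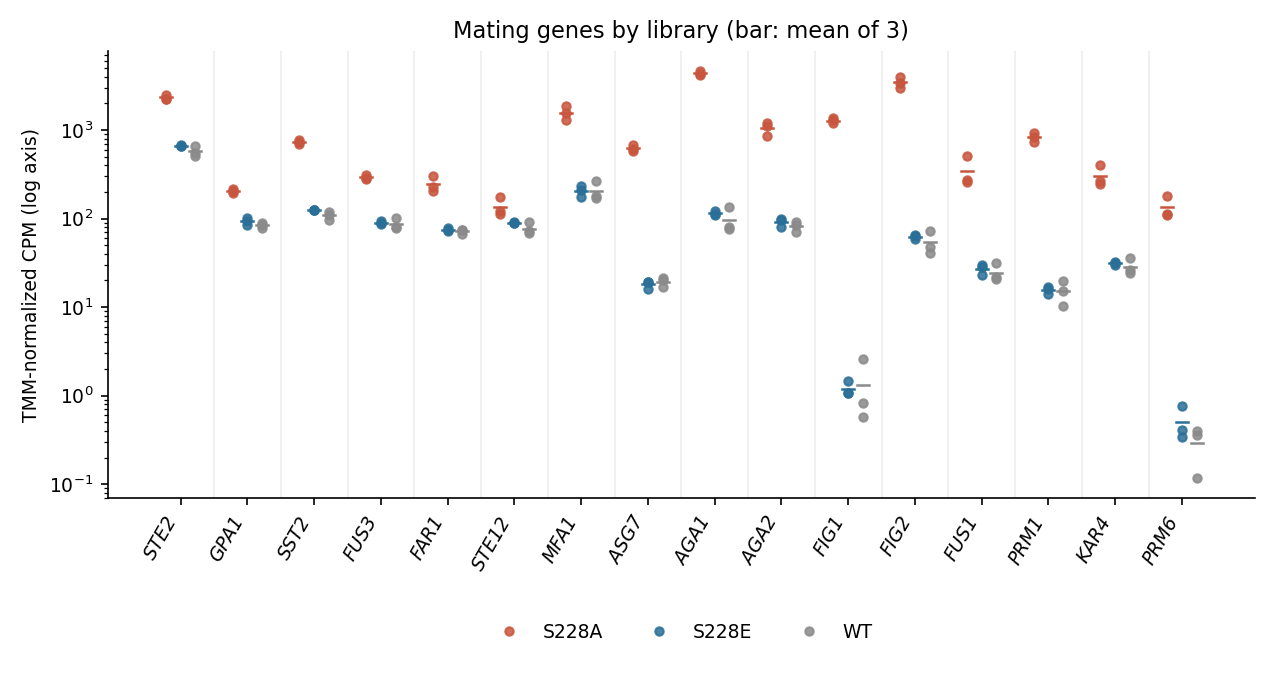
TMM-normalized CPM of 16 mating genes on a log axis; each point is a library (red S228A, blue S228E, grey WT) and each bar the mean of 3. In all 16 genes the red points lie above the blue ones, and the blue and grey points lie close together. The 16 were picked from genes called lower in S228E, so the place of red above blue was fixed by the choice. Members of the same lists that were not called or were higher, such as PRM7 and SPA2, are not drawn.

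Promoters were read from 250 bases before to 50 bases after the start codon of 5897 protein-coding genes, on the reference genome, and searched on both strands. Ste12 binds TGAAACA. MBF binds ACGCGT and SBF binds CACGAAA. Forkhead factors bind GTAAACA. Matches to different motifs overlapped each other in 3 promoters. TGAAACA was present in 7.33% of all promoters, in 23% of those of the 200 protein-coding genes called lower in S228E and in 6.23% of those of the 401 called higher. More than 1 match was present in 4.5% of the lower genes' promoters and in 0.424% of all promoters. A match is a stretch of letters and not a measured binding site. PRM6 and PRM1 are shown because they were among the genes with the greatest fold that held a match to it. The lower call of PRM6 was close to fixed, as said above, so its promoter is shown for its sequence only. TGAAACA, or its reverse complement, is in capitals.
PRM6 promoter, chrXIII:181026-181325, - strand: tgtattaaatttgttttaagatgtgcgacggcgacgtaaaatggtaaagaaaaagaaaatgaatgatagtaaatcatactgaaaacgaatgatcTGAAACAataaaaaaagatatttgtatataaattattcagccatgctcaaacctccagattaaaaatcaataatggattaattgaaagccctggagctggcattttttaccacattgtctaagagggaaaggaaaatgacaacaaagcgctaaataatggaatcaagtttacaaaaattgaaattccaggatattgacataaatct
PRM1 promoter, chrXIV:110667-110966, + strand: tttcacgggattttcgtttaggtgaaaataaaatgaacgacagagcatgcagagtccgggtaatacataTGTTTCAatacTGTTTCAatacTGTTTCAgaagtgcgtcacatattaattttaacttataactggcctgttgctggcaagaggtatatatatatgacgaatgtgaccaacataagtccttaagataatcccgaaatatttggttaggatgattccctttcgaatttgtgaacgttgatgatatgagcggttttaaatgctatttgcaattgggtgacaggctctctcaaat
PRM1 held 3 matches at -181, -170 and -159 from the start codon, and PRM6 held 1 at -156. FIG1 held no TGAAACA in this window and 1 match to GTAAACA at -40.

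Transposon rows and some tRNA rows were also lower in S228E. All of the 42 transposon rows called, of 54 tested, were lower, beside 4.35% of all rows tested called lower. The 42 include the 3 Ty5 rows, whose lower calls were close to fixed, as set out below with the tRNA rows. Ty3 rows together held 2329, 2923 and 2273 counts per 1e6 of the library total in the S228A libraries and 104.4, 93.9 and 94.0 in the S228E libraries. Ty5 rows together held 103.4, 157.9 and 133.6 counts per 1e6 in S228A and 0, 0.285 and 0.138 in S228E. Ty1 rows differed by less, with 3432, 3054 and 3030 counts per 1e6 in S228A against 1776, 1566 and 1544 in S228E, as did Ty2 rows, with 277.5, 279.2 and 247.5 against 157.1, 119.3 and 119.3. In all 4 families the S228A libraries lay above the S228E libraries. The authors' counting left out reads placed at several sites, so the levels of repeated rows are low and their split among copies is uncertain. The Ty3 row YIL082W-A (chromosome IX, 205635 to 210132) was at 1474, 1713 and 1456 CPM and 61.6, 56.7 and 61 CPM, a log2 fold change of -4.69 ± 0.11 (adjusted p = 1.50e-11 by edgeR). Of the 4 Ty3 rows 2 were tested, and the other tested row, YGR109W-B, was at log2 -4.74 ± 0.13 (adjusted p = 4.51e-11 by edgeR).

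Of 275 nuclear tRNA rows, 20 were tested. Those called, 13 in number, were all lower in S228E, beside 4.35% of all rows tested called lower. But they include rows that passed the count filter only through S228A, as set out below. Within 50 bases of a Ty3 long terminal repeat (LTR) lay 36 of the 275 rows, each with the LTR on its upstream side, where Ty3 is known to integrate. These 36 rows together held 105, 129 and 122 counts per 1e6 in the S228A libraries and 6.45, 5.87 and 5.67 in the S228E libraries. The other 239 rows held 32.3, 35 and 31.1 counts per 1e6 in S228A and 26, 23.6 and 26.1 in S228E. Both summed levels were higher in S228A. Of the rows beside a Ty3 LTR 9 were tested, and of the others 11. Rows with almost no counts in S228E and WT passed the count filter through S228A, so a lower call was close to fixed for them, and their calls are not counted here as a result. The same holds for the Ty5 rows. The rows did not all follow their place. Beside a Ty3 LTR, tG(GCC)D2 was at log2 -0.82 ± 0.18, and tW(CCA)P at -0.87 ± 0.38 was not called. Far from any Ty3 LTR, with the nearest one 33108 bases away, tW(CCA)G2 was at 2.85, 1.81 and 1.65 CPM in S228A and had 0 counts in the 3 S228E libraries. The choice of these 3 was made with their values known. The row tH(GUG)E2 (chromosome V, 434541 to 434612) was at 32, 43.1 and 43.6 CPM in S228A and 0.151, 0.339 and 0.208 CPM in S228E, a log2 fold change of -7.38 ± 0.29. On chromosome VII, at 736340 to 736411, the row tR(UCU)G3 held 42.1, 38.1 and 48.3 CPM and 0, 0.0564 and 0.416 CPM, at log2 -8.23 ± 0.39. That fitted value rests on few counts in S228E, and was -10.33 without S228E replicate 3 and -7.58 without S228E replicate 1.

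TGAAACA was present in 37 of the 42 Ty3 LTRs of the annotation (88.1%) and in 5 of 8 Ty5 LTRs (62.5%). It was present in 27.7% of 267 Ty1 LTRs, in 5.71% of 35 Ty4 LTRs and in none of 32 Ty2 LTRs. The stretches beside the 2 tRNA rows above are shown with the motif in capitals, on the strand of the LTR.
Ty3 LTR beside tH(GUG)E2, chrV:434838-434964, - strand: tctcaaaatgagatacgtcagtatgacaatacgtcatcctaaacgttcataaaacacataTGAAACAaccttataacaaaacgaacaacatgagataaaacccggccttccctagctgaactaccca
Ty3 LTR beside tR(UCU)G3, chrVII:735989-736115, + strand: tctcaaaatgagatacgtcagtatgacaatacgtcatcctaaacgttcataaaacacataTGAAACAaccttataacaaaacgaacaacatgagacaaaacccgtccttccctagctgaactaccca
On chromosome IX the Ty3 row YIL082W-A, an LTR at 210308 to 210647, the row tI(AAU)I2 and the gene AIR1 (210923 to 212005) follow one another. AIR1, a gene of RNA surveillance chosen here for its place after its value was seen, was at 75.1, 92.7 and 82.7 CPM in S228A and 21.2, 16.4 and 19.6 CPM in S228E, a log2 fold change of -2.13 ± 0.12 (adjusted p = 3.49e-08 by edgeR). The counting took no account of strand, so reads of a gene and of a transcript that enters it from a neighbour cannot be told apart. YGR122C-A, an unnamed row next to tR(UCU)G3 on chromosome VII, was lower as well, at log2 -3.75 ± 0.14 (adjusted p = 4.16e-10 by edgeR).

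**Figure D3:**
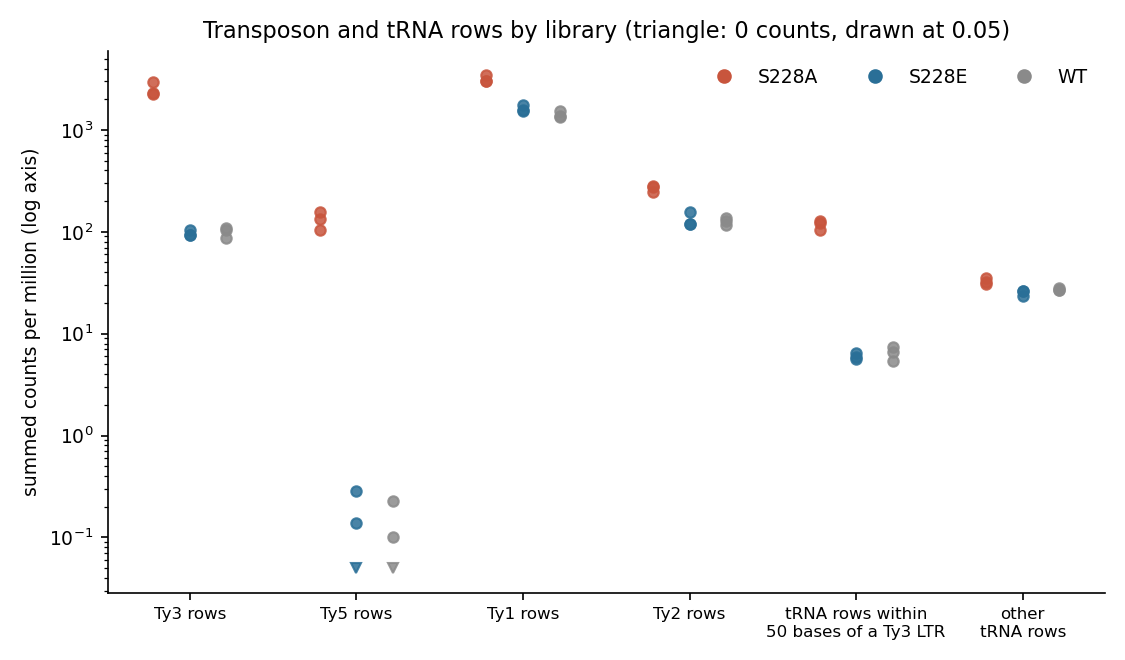
Summed counts per 1e6 of the library total of transposon families and tRNA rows on a log axis; each point is a library (red S228A, blue S228E, grey WT) and triangles at the bottom are libraries with 0 counts. Ty3, Ty5 and the 36 tRNA rows beside Ty3 LTRs are far higher in the red libraries, and the other 239 tRNA rows differ by less.

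Histone genes and their regulators held many higher calls. Counts in the histone lists and in the cell division lists that follow are to be read beside the shares of all rows. These were 6.73% called higher and 4.35% called lower. A single call in a list is not read as a result about that list. All 8 core histone genes were called higher, with a median log2 fold change of 2.52. HTB2, an H2B gene, was at 37.3, 33.7 and 46.3 CPM in the S228A libraries and at 646, 628 and 606 CPM in the S228E libraries, a log2 fold change of 4.0 ± 0.12 (adjusted p = 1.09e-10 by edgeR). HTA2, its divergent H2A neighbour, was at 28.1, 30.8 and 27.7 CPM and 305, 319 and 306 CPM, a log2 fold change of 3.42 ± 0.10 (adjusted p = 1.06e-10 by edgeR). The groups of both genes were far apart, and each group was tight. The other pair of H2A and H2B genes moved by less: HTA1 was at log2 1.70 ± 0.11 (adjusted p = 7.31e-08 by edgeR) and HTB1 at 1.78 ± 0.09 (adjusted p = 6.72e-09 by edgeR). Of the H3 and H4 genes, HHF2 was at 37.2, 42.8 and 39.8 CPM in S228A and 392, 404 and 414 CPM in S228E, a log2 fold change of 3.34 ± 0.08 (adjusted p = 1.83e-11 by edgeR). HHF1 was at 3.04 ± 0.10 (adjusted p = 2.63e-10 by edgeR), HHT1 at 2.0 ± 0.10 (adjusted p = 5.86e-09 by edgeR) and HHT2 at 1.68 ± 0.09 (adjusted p = 9.77e-09 by edgeR). Near-identical pairs share reads, and since reads placed at several sites were left out, the split within a pair is uncertain while the direction was the same in all 8 genes. The linker histone HHO1 was at 25.5, 27.6 and 23.7 CPM and 146, 148 and 149.5 CPM, a log2 fold change of 2.53 ± 0.08 (adjusted p = 1.06e-10 by edgeR). The H2A variant HTZ1 was at 1.22 ± 0.08 (adjusted p = 2.23e-07 by edgeR) and the centromeric H3 variant CSE4 at 1.17 ± 0.14 (adjusted p = 2.88e-05 by edgeR). In the list of variants, linker and regulators, 8 of 16 were called higher and 0 lower, among them the chaperone ASF1 at log2 0.92 ± 0.12 (adjusted p = 5.68e-05 by edgeR) and CAC2 of the chromatin assembly factor at 0.96 ± 0.08 (adjusted p = 7.55e-07 by edgeR). The HIR corepressor genes HIR1, HIR2 and HIR3 were not called, at log2 0.28 ± 0.10, 0.32 ± 0.09 and 0.29 ± 0.08.

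The cyclins did not all go one way. CLN1, a G1 cyclin that starts the division cycle, was at 15.5, 15.1 and 13.1 CPM in S228A and 115, 110.1 and 109 CPM in S228E, a log2 fold change of 2.94 ± 0.10 (adjusted p = 3.32e-10 by edgeR). CLN2 was at 48.5, 33 and 49.5 CPM and 143, 127 and 113 CPM, a log2 fold change of 1.55 ± 0.17 (adjusted p = 1.98e-05 by edgeR). PCL1, a G1 cyclin of the kinase Pho85, was under 1 CPM in all S228A libraries, at 0.514, 0.103 and 0.33 CPM, and at 21.2, 10.2 and 8.81 CPM in S228E, a log2 fold change of 5.42 ± 0.57 (adjusted p = 1.03e-05 by edgeR). CLN3, the upstream G1 cyclin, was lower in S228E, with 183, 229.8 and 181 CPM in S228A and 89.3, 96.9 and 99.6 CPM in S228E, a log2 fold change of -1.06 ± 0.11 (adjusted p = 7.83e-06 by edgeR). PCL2, the paralog of PCL1, was also lower, with 139, 309 and 127 CPM and 25.3, 28.2 and 23.7 CPM, a log2 fold change of -2.89 ± 0.28 (adjusted p = 5.36e-06 by edgeR). In all 5 genes the groups did not overlap, and PCL2 was far higher in S228A replicate 2 than in the other S228A libraries. Of 13 G1 and Pho85 cyclins 3 were thus higher and 2 lower. Of 13 G1/S transcription factors and repressors, 6 were higher and 1 lower. TOS4, a target of SBF and MBF, was at 3.20, 2.69 and 3.30 CPM and 49.4, 40.7 and 41.1 CPM, a log2 fold change of 3.84 ± 0.13 (adjusted p = 1.97e-10 by edgeR). NRM1, the corepressor of MBF, was at log2 3.02 ± 0.19 (adjusted p = 1.10e-07 by edgeR), and YHP1, a repressor of early cell cycle genes, at 1.49 ± 0.20 (adjusted p = 0.000112 by edgeR). STB1, which binds SBF and MBF, was at 1.01 ± 0.11 (adjusted p = 1.89e-05 by edgeR).

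Some genes of DNA replication were higher in S228E. Of 38 tested genes of the fork and of nucleotide synthesis, 16 were called higher in S228E and 0 lower, with a median log2 fold change of 0.41. RNR1, the large subunit of ribonucleotide reductase, was at 26.5, 26.3 and 27 CPM in S228A and 284, 229 and 209 CPM in S228E, a log2 fold change of 3.17 ± 0.17 (adjusted p = 1.54e-08 by edgeR). CDC21, thymidylate synthase, was at 6.91, 7.59 and 7.05 CPM and 23.4, 26.5 and 25.9 CPM, a log2 fold change of 1.81 ± 0.12 (adjusted p = 1.38e-07 by edgeR). POL1 and POL2, catalytic subunits of DNA polymerases alpha and epsilon, were at log2 1.53 ± 0.10 (adjusted p = 8.07e-08 by edgeR) and 1.12 ± 0.07 (adjusted p = 7.14e-08 by edgeR), and POL30, the sliding clamp PCNA, was at 2.03 ± 0.17 (adjusted p = 1.62e-06 by edgeR). Of 19 genes of mismatch repair, recombination and checkpoint, 7 were higher and 0 lower, among them the helicase SRS2 at log2 2.29 ± 0.09 (adjusted p = 1.31e-09 by edgeR), the checkpoint kinase RAD53 at 1.34 ± 0.15 (adjusted p = 2.05e-05 by edgeR) and the mismatch repair genes MSH6 at 1.09 ± 0.10 (adjusted p = 2.20e-06 by edgeR) and PMS1 at 1.02 ± 0.11 (adjusted p = 9.58e-06 by edgeR). In origin licensing 3 of 14 were higher and 0 lower, with CDC6, which loads the helicase, at 1.42 ± 0.23 (adjusted p = 0.000452 by edgeR) and ORC1 at 0.86 ± 0.08 (adjusted p = 6.14e-06 by edgeR). The remaining one, ORC6, was at log2 0.587, close to the fold threshold. It lost its call without S228A replicate 1, S228A replicate 3, S228E replicate 2 or S228E replicate 3. The helicase subunit MCM7 stayed under the fold threshold, at log2 0.45 ± 0.07 (adjusted p = 0.000323 by edgeR).

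Some genes of mitosis were higher as well. Of 11 B-type cyclins and regulators of Cdk1, 6 were called higher and 0 lower. CLB1, a mitotic cyclin, was at 5.08, 3.56 and 6.39 CPM in S228A and 79.7, 74.6 and 62.1 CPM in S228E, a log2 fold change of 3.85 ± 0.19 (adjusted p = 7.15e-09 by edgeR). CLB2, its paralog, was at 7.71, 10.2 and 10.3 CPM and 50.7, 45.1 and 46.7 CPM, a log2 fold change of 2.33 ± 0.11 (adjusted p = 3.99e-09 by edgeR). For neither did the groups overlap. CDC28, the Cdk itself, was at log2 0.96 ± 0.09 (adjusted p = 5.81e-06 by edgeR) and SWE1, the kinase that inhibits it, at 1.43 ± 0.10 (adjusted p = 1.74e-07 by edgeR). The S phase cyclin CLB5 was not called, at log2 0.08 ± 0.15 with a 95% interval of -0.21 to 0.37, and the inhibitor SIC1 was at 0.25 ± 0.11. In the CLB2 cluster and mitotic exit, 12 of 22 were higher and 2 lower. SWI5, the transcription factor of late mitosis, was at 5.37, 6.20 and 7.66 CPM and 62.7, 63 and 65.9 CPM, a log2 fold change of 3.31 ± 0.13 (adjusted p = 7.29e-10 by edgeR). CDC5, the polo kinase, was at log2 2.64 ± 0.13 (adjusted p = 7.19e-09 by edgeR), FKH1, a forkhead factor, at 2.11 ± 0.10 (adjusted p = 7.22e-09 by edgeR), and HST3, a histone deacetylase of the sirtuin family, at 2.16 ± 0.10 (adjusted p = 2.62e-09 by edgeR). AMN1, which shuts off mitotic exit in daughter cells, was lower in S228E at log2 -1.37 ± 0.10 (adjusted p = 3.94e-07 by edgeR), as was SPO12 of mitotic exit at -0.91 ± 0.10 (adjusted p = 2.30e-05 by edgeR).

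For chromosome structure, 9 of 12 genes of cohesin, securin and separase were called higher and 0 lower, with a median of 1.03, and 4 of 5 condensin genes were higher. MCD1, the cleavable subunit of cohesin, was at 2.91, 3.56 and 2.81 CPM in S228A and 28.4, 21.8 and 21 CPM in S228E, a log2 fold change of 2.94 ± 0.21 (adjusted p = 3.12e-07 by edgeR). PDS5, which keeps cohesin on chromosomes, was at 2.15 ± 0.11 (adjusted p = 1.41e-08 by edgeR) and ESP1, separase, at 1.17 ± 0.09 (adjusted p = 4.87e-07 by edgeR). The condensin genes BRN1, YCS4 and SMC4 were at log2 1.45 ± 0.20 (adjusted p = 0.000107 by edgeR), 1.40 ± 0.11 (adjusted p = 9.08e-07 by edgeR) and 1.0 ± 0.09 (adjusted p = 3.36e-06 by edgeR). Of 23 spindle and kinetochore genes 14 were higher and 1 lower: the kinesin CIN8 was at log2 1.97 ± 0.12 (adjusted p = 4.37e-08 by edgeR), the microtubule polymerase STU2 at 1.81 ± 0.09 (adjusted p = 9.77e-09 by edgeR) and alpha-tubulin TUB1 at 1.10 ± 0.08 (adjusted p = 4.86e-07 by edgeR). In the septin and morphogenesis checkpoint list 7 of 12 were higher and 0 lower, led by GIN4, a kinase of the septin collar, with 7.13, 6.25 and 8.04 CPM in S228A and 62.8, 53.2 and 57.2 CPM in S228E, at log2 3.02 ± 0.11 (adjusted p = 4.95e-10 by edgeR). The bud site landmarks AXL2 and BUD4 were at 2.50 ± 0.08 (adjusted p = 1.52e-10 by edgeR) and 2.32 ± 0.10 (adjusted p = 2.69e-09 by edgeR). For cytokinesis 5 of 11 were higher and 1 lower. HOF1, which couples the actomyosin ring to the septum, was at 6.05, 4.65 and 6.94 CPM and 52.9, 51.8 and 45.8 CPM, a log2 fold change of 3.10 ± 0.13 (adjusted p = 1.31e-09 by edgeR). CHS2, the chitin synthase of the primary septum, was at log2 2.67 ± 0.11 (adjusted p = 1.31e-09 by edgeR), the ring scaffold IQG1 at 1.43 ± 0.09 (adjusted p = 6.75e-08 by edgeR) and the myosin MYO1 at 1.10 ± 0.08 (adjusted p = 3.19e-07 by edgeR).

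**Figure D4:**
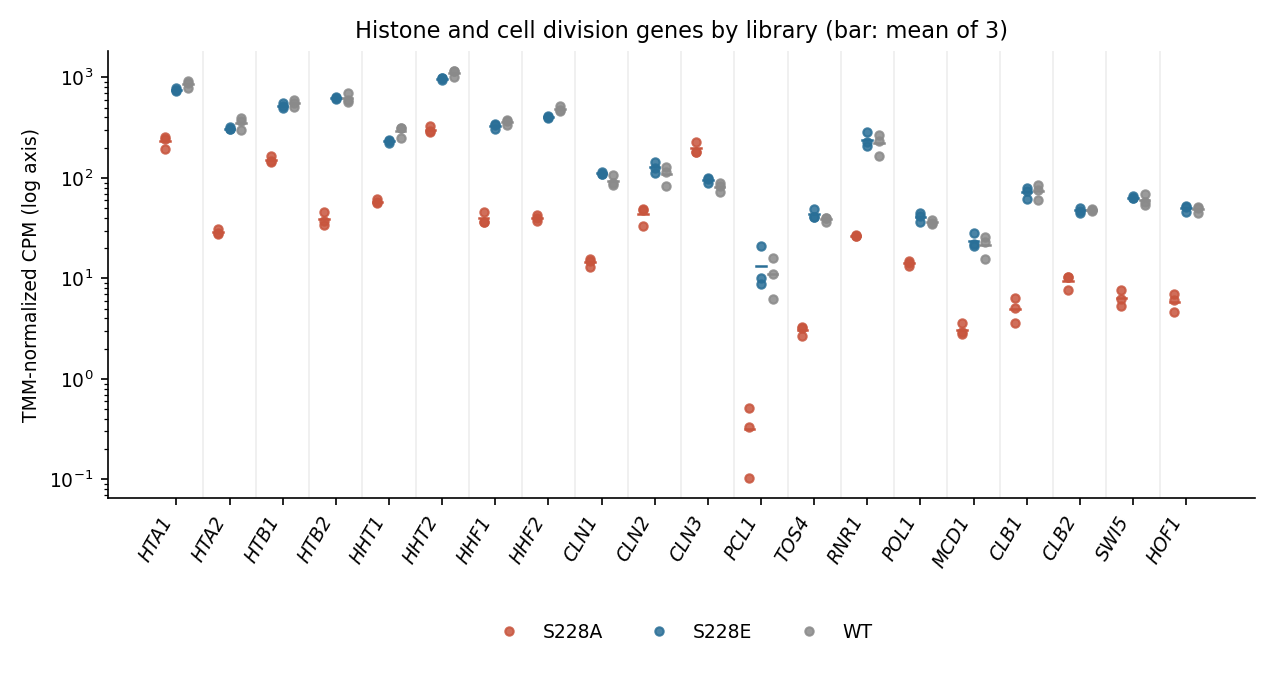
TMM-normalized CPM of the 8 core histone genes and 12 genes of cell division on a log axis; each point is a library (red S228A, blue S228E, grey WT) and each bar the mean of 3. The blue points lie above the red ones in every gene except CLN3, where they lie below.

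Promoters of the genes called higher held other motifs. ACGCGT was present in 13% of the 401, against 3.12% of all promoters and 3% of the promoters of genes called lower. GTAAACA was present in 19% of those called higher, 6.66% of all and 4% of those called lower. CACGAAA was present in 6.73%, 4.27% and 4% in the same order. For the motifs of MBF, SBF and the forkhead factors in turn, the promoter shown is that of the named gene called higher with the most matches, chosen after values were seen, with the match to that motif or its reverse complement in capitals.
CDC21 promoter, chrXV:467540-467839, - strand: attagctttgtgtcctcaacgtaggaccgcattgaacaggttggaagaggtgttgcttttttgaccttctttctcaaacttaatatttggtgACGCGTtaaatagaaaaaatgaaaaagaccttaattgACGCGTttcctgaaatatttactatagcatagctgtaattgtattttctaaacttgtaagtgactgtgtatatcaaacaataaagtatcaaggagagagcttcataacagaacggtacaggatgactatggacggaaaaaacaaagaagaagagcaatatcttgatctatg
TOS4 promoter, chrXII:521963-522262, - strand: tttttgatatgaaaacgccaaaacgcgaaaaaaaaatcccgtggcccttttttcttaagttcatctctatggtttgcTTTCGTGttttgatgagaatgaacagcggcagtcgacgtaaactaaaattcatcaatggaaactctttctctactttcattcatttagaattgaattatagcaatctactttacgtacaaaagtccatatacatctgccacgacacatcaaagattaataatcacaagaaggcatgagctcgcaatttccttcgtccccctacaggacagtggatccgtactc
HOF1 promoter, chrXIII:335048-335347, + strand: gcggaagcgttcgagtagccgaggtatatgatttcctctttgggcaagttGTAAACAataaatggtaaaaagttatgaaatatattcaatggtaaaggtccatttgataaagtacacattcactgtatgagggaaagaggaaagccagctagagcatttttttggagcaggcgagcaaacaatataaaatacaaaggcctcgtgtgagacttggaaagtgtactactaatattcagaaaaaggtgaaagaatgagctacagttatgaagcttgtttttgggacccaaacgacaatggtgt
CDC21, with 2 matches to ACGCGT at -158 and -121, was at log2 1.81 ± 0.12, TOS4, with CACGAAA at -173, at 3.84 ± 0.13, and HOF1, with GTAAACA at -200, at 3.10 ± 0.13. PCL1, TOS6 and FDO1, the genes of the naming rule with the greatest fold, held none of the 4 motifs in this window. TOS6, a wall protein of unknown role, was at 10.3, 8.83 and 10.5 CPM in S228A and 219, 221 and 202 CPM in S228E, a log2 fold change of 4.44 ± 0.09 (adjusted p = 1.20e-11 by edgeR). FDO1, which acts with forkhead factors, was at 0.913, 0.878 and 0.606 CPM and 14.4, 14.8 and 13.2 CPM, a log2 fold change of 4.14 ± 0.18 (adjusted p = 1.86e-09 by edgeR). AIM20, of unknown role, was at log2 3.52 ± 0.18 (adjusted p = 1.16e-08 by edgeR).

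Genes of the cell wall were called in both directions, to be read beside the 6.73% of all rows called higher and the 4.35% called lower. Of 12 genes of chitin synthesis and crosslinking, 5 were called lower in S228E and 0 higher. CHS1, a chitin synthase of repair, was at 619, 626 and 679 CPM in S228A and 225, 203 and 220.4 CPM in S228E, a log2 fold change of -1.57 ± 0.09 (adjusted p = 5.10e-08 by edgeR). GFA1, the first enzyme of hexosamine synthesis, was at 795, 804 and 831 CPM and 403, 397 and 433 CPM, a log2 fold change of -0.98 ± 0.07 (adjusted p = 3.31e-07 by edgeR). CHS3 and CHS7, the chitin synthase of the bud neck ring and its export chaperone, were at -0.82 ± 0.10 (adjusted p = 3.39e-05 by edgeR) and -0.65 ± 0.07 (adjusted p = 1.88e-05 by edgeR). The opposite direction was that of CHS2, described above with the septum. Of 18 glucan genes 3 were higher and 2 lower. GAS1, a glucan transferase, was at 828, 718 and 869.6 CPM and 1879.7, 1938 and 2034 CPM, a log2 fold change of 1.28 ± 0.09 (adjusted p = 2.79e-07 by edgeR), and its relative GAS3 was at 2.43 ± 0.09 (adjusted p = 3.32e-10 by edgeR). SCW10, a wall glucanase of mating, was lower, with 1917, 1789 and 2058 CPM in S228A and 579, 549.6 and 545 CPM in S228E, at log2 -1.78 ± 0.08 (adjusted p = 3.63e-09 by edgeR). The count of 2 lower glucan genes became 1 without S228A replicate 3, S228E replicate 1 or S228E replicate 2. Of 25 wall mannoproteins 10 were higher and 3 lower. CIS3, a wall protein of the PIR family, was at 137, 104 and 154 CPM and 1069, 1089 and 1028 CPM, a log2 fold change of 3.01 ± 0.12 (adjusted p = 1.31e-09 by edgeR), and SRL1 was at 2.04 ± 0.08 (adjusted p = 1.31e-09 by edgeR). CWP2, an abundant mannoprotein, was at 1.14 ± 0.11 (adjusted p = 6.14e-06 by edgeR), while TIP1 was lower at -0.75 ± 0.09 (adjusted p = 5.24e-05 by edgeR). CTS1, the chitinase that parts mother and daughter, was at 3557, 3087 and 3712 CPM and 1980.5, 1999 and 2044 CPM, lower at log2 -0.78 ± 0.09 (adjusted p = 2.24e-05 by edgeR), and the glucanase SCW11 was lower at -1.07 ± 0.09 (adjusted p = 9.08e-07 by edgeR). UTH1, a wall and mitochondrial protein that was the most abundant named transcript among those lower in S228E, was at 5046, 4964 and 5653 CPM and 2411, 2388 and 2346 CPM, a log2 fold change of -1.13 ± 0.09 (adjusted p = 5.95e-07 by edgeR).

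Counts in the lists of nutrient and stress genes are to be read beside the 6.73% of all rows called higher and the 4.35% called lower. The siderophore mannoproteins FIT1, FIT2 and FIT3 made up most of the 4 higher members among 30 iron genes, with 1 lower. FIT2 was at 128, 49.5 and 88.2 CPM in S228A and 621, 442 and 738 CPM in S228E, a log2 fold change of 2.76 ± 0.28 (adjusted p = 7.64e-06 by edgeR). FIT1 varied widely within S228E, at 72.4, 39.3 and 95.2 CPM, and WT held 183, 76.3 and 156 CPM. HMX1, a haem oxygenase, was lower at log2 -1.12 ± 0.18 (adjusted p = 0.000383 by edgeR). Of 20 phosphate regulon genes 9 were higher and 0 lower, and the count of 9 became 4 without S228E replicate 1. SPL2 and PHO84, a regulator and the high-affinity transporter of phosphate, were at log2 0.99 ± 0.10 (adjusted p = 8.13e-06 by edgeR) and 0.93 ± 0.10 (adjusted p = 1.16e-05 by edgeR). Of 40 general stress genes 10 were higher and 0 lower. HSP12, a small membrane heat shock protein, was at 40.6, 54.1 and 91.2 CPM and 340.4, 577 and 548 CPM, a log2 fold change of 2.98 ± 0.26 (adjusted p = 2.20e-06 by edgeR), and YGP1 was at 1.55 ± 0.20 (adjusted p = 5.67e-05 by edgeR). TDH1, a glyceraldehyde phosphate dehydrogenase, was at 1930.0, 988 and 2112 CPM in S228A, lowest in replicate 2, and 2813, 3273 and 3603 CPM in S228E, a log2 fold change of 0.95 ± 0.22 (adjusted p = 0.00591 by edgeR). Of 24 genes under nitrogen catabolite repression 4 were higher and 0 lower, among them the permeases GAP1 at 1.23 ± 0.22 (adjusted p = 0.000872 by edgeR) and MEP2 at 1.12 ± 0.15 (adjusted p = 9.96e-05 by edgeR). Of 22 genes of glycolysis and fermentation 2 were higher and 1 lower, of 18 for trehalose and glycogen 1 was higher, and of 32 for amino acid synthesis under Gcn4 1 was higher, shares close to those of all rows or below them. The glycolysis gene PDC6 lost its call without each single library other than S228A replicate 1, which left 1 higher, and without S228A replicate 1 there were 2 lower. The Gcn4 gene SNO1 lost its call without S228A replicate 1, S228A replicate 2 or S228E replicate 3, which left 0. For zinc and copper 1 of 10 was higher, and 0 without S228A replicate 1, S228A replicate 2 or S228E replicate 1, while without S228A replicate 2 there was 1 lower. For sulfur and methionine 1 of 26 was higher, and 0 without S228A replicate 2 or S228E replicate 2. In the same list 1 was lower, 0 without S228A replicate 2 and 2 without S228A replicate 1 or S228A replicate 3. The galactose regulon had 0 calls of 7 and the common marker genes 0 of 5 in edgeR, DESeq2 and limma-voom, with 3 and 2 at an unadjusted p under 0.05 in edgeR. GAL7 gained a call in 1 of 15 alternatives. The marker genes URA3, LEU2 and MET17 had 0 or 1 counts in each of the 9 libraries and were not tested. In hexose transport HXT1, of low affinity, was higher at 0.97 ± 0.12 (adjusted p = 6.13e-05 by edgeR), and HXT9 lower at -2.95 ± 0.18 (adjusted p = 6.57e-08 by edgeR). HXT9 shares near-identical copies, so its level is uncertain, and no other of 15 members was called. In filamentous growth PGU1, a secreted pectinase, was lower, with 128, 115 and 138 CPM in S228A and 11.9, 13 and 14.8 CPM in S228E, at log2 -3.27 ± 0.12 (adjusted p = 3.64e-10 by edgeR). In all 3 of 15 members of that list were lower and 1 higher. In the polarity list 5 of 24 were higher and 2 lower, among them RSR1, the GTPase of bud site choice, at 1.10 ± 0.12 (adjusted p = 1.53e-05 by edgeR). Ergosterol synthesis had 3 higher and 2 lower of 26, such as ERG3 at 1.11 ± 0.11 (adjusted p = 5.35e-06 by edgeR) and ERG24 at -0.85 ± 0.09 (adjusted p = 9.00e-06 by edgeR).

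**Figure D5:**
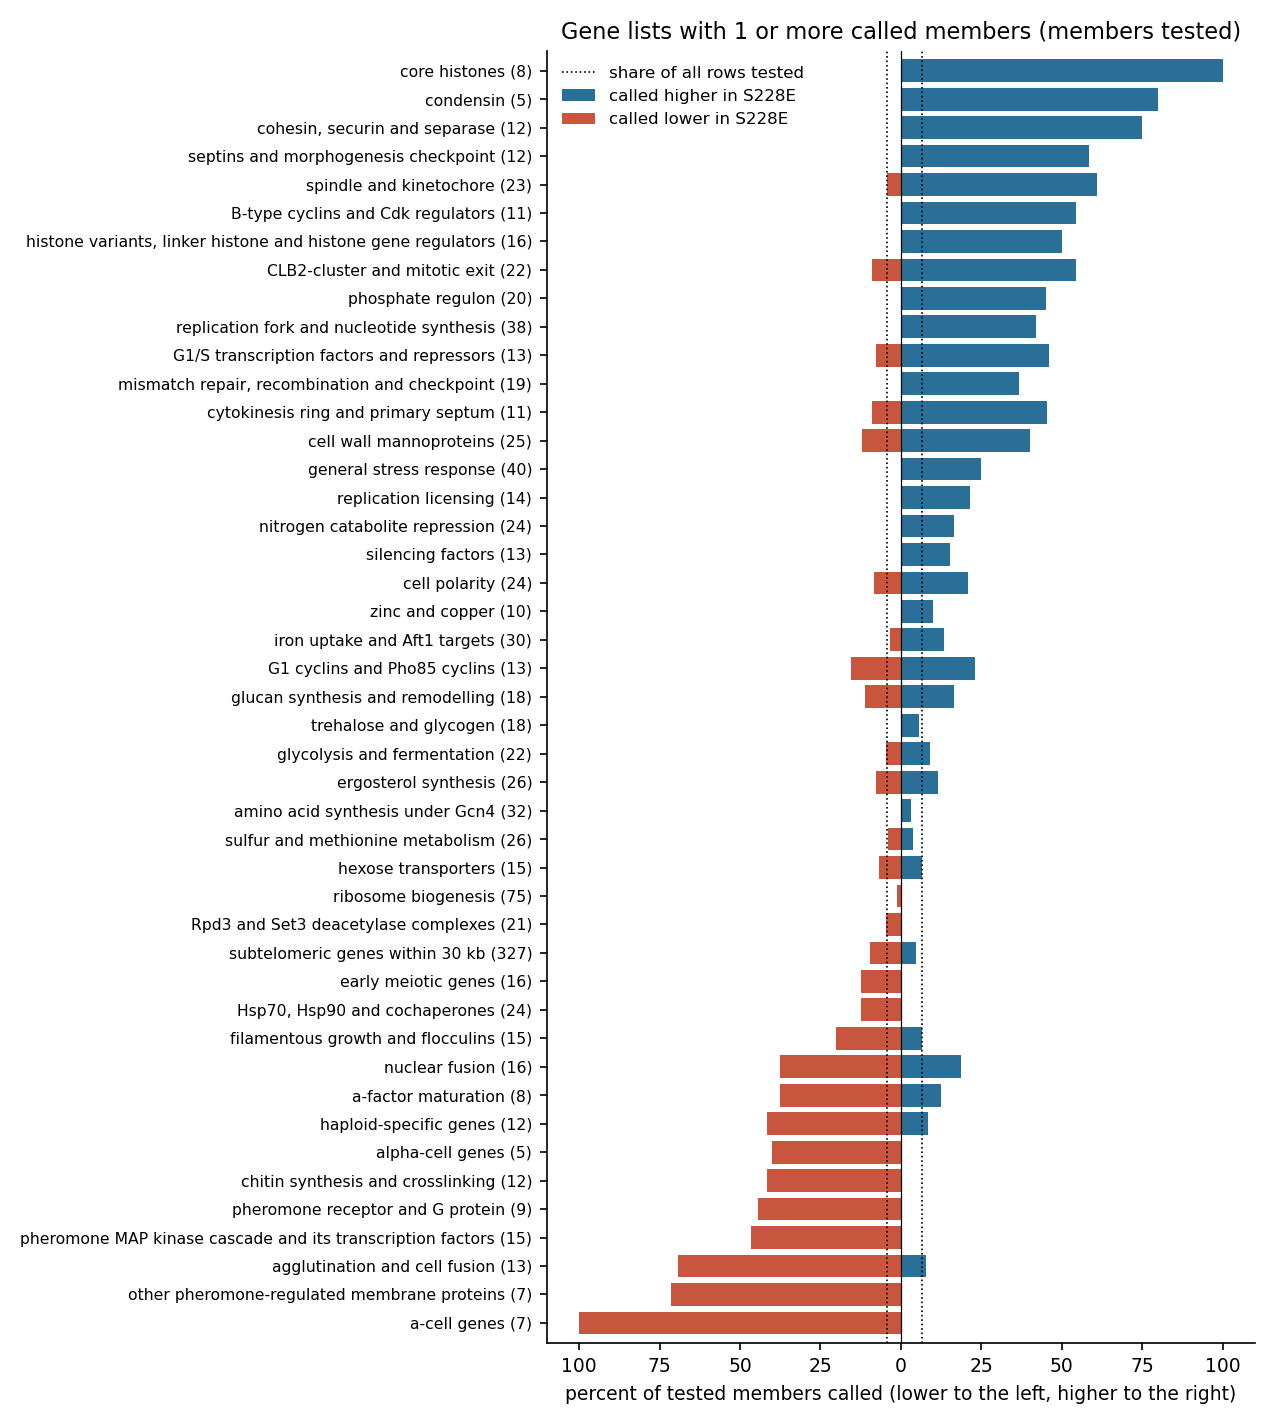
Percent of tested members called higher in S228E (blue, to the right) and called lower (red, to the left) for gene lists of 5 or more tested members with a call, other than 1 list not reported here; the number tested stands in brackets and the dotted lines mark the share of all rows tested (6.73% higher, 4.35% lower). Core histones stand at one end with 8 of 8 higher and a-cell genes at the other with 7 of 7 lower.

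Growth genes held few calls or none. All counts in the lists below are to be read beside the 6.73% of all rows called higher and the 4.35% called lower. None of the 56 small and 80 large ribosomal subunit protein genes tested was called, though their medians were -0.26 and -0.25, below the median of all rows. In edgeR 24 and 38 of them had an adjusted p under 0.05 (34 and 52 unadjusted) with a fold under 1.5, and DESeq2 and limma-voom called 0. In ribosome biogenesis 1 of 75 was lower, with a median of -0.05. It was ESF1 at log2 -0.59 ± 0.08 (adjusted p = 7.46e-05 by edgeR), whose fold fell under 1.5 without S228A replicate 2 (log2 -0.55) or S228E replicate 3 (-0.55). There was no call among 19 subunits of RNA polymerases I and III, 33 proteasome genes, 37 nuclear genes of respiration, 23 of nucleotide synthesis, 21 of autophagy, 10 of H2B ubiquitylation and PAF1 and 6 of other histone methylation. Their counts at an unadjusted p under 0.05 in edgeR were 8, 9, 11, 8, 7, 6 and 1 in the same order, and DESeq2 and limma-voom called 0 as well. In other alternatives the autophagy gene ATG5 gained a call in 2 of 15 and ATG1 in 1. Over the 24 tested Hsp70, Hsp90 and cochaperone genes 3 were lower and 0 higher, and without S228A replicate 2 none was called. Of the Rpd3 and Set3 complexes 1 of 21 was called, a share close to the 4.35% of all rows called lower. It was HOS2, a deacetylase of Set3, lower at log2 -0.92 ± 0.11 (adjusted p = 3.84e-05 by edgeR). Silencing factors had 2 higher of 13, ABF1 at 0.84 ± 0.11 (adjusted p = 0.0001 by edgeR) and SIR4 at 0.63 ± 0.10 (adjusted p = 0.000348 by edgeR). SIR4 lost its call without S228A replicate 3 (log2 0.58). Within 30 kb of a chromosome end, 15 of 327 genes were higher and 31 lower, beside 6.73% and 4.35% of all rows. They include PGU1, KAR4 and HXT11, and VAC17, the adaptor of vacuole inheritance, at log2 2.50 ± 0.14 (adjusted p = 1.99e-08 by edgeR). Among early meiotic genes NDT80 and HOP2 were lower, at -0.90 ± 0.09 (adjusted p = 4.71e-06 by edgeR) and -1.23 ± 0.26 (adjusted p = 0.00367 by edgeR), of 16 tested, while the meiotic inducer IME1 was at -0.55 ± 0.15 (adjusted p = 0.0142 by edgeR) without a call and SPO11 at -0.02 ± 0.21.

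WT lay nearer to S228A than to S228E in 8 called rows, 2 higher and 6 lower in S228E. Of these, 3 protein-coding genes met the naming rule, all lower in S228E and all close to the fold threshold. IRC4 was at 8.68, 8.73 and 6.44 CPM in S228A, 4.49, 4.68 and 5.41 CPM in S228E and 6.39, 6.92 and 8.52 CPM in WT, a log2 fold change of -0.71 ± 0.18 (adjusted p = 0.00993 by edgeR). PTH1, a mitochondrial peptidyl-tRNA hydrolase, was at 29.6, 26.9 and 26.8 CPM, 17.5, 16 and 18.9 CPM and 25.3, 18 and 23.6 CPM in the same order, a log2 fold change of -0.67 ± 0.13 (adjusted p = 0.00149 by edgeR). MAL12, a maltase, was at 28.3, 38.8 and 22.3 CPM, 13.5, 19.8 and 21.9 CPM and 21.6, 19.6 and 31 CPM, a log2 fold change of -0.70 ± 0.23 (adjusted p = 0.0336 by edgeR). Its call was lost without S228A replicate 1, S228A replicate 2, S228E replicate 1 or S228E replicate 2, with log2 values of -0.74, -0.48, -0.53 and -0.77. The WT ranges overlapped those of 1 or both mutants in these genes.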

How the data were processed

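RNA of 9 libraries, 3 per genotype, was measured, and the counts deposited by the authors form 1 table, raw and with no scaling. Per the file headers these counts came from featureCounts 2.0.1 in paired mode, which summed exon reads by gene under the Ensembl annotation of sacCer3. Strand was ignored, and reads with several placements were left out. The submitters' processing notes name Bowtie 0.12.2 without a role, and no source used here says which aligner was run. The extraction text of the labels describes chromatin, whereas the design text speaks of total RNA taken up in phenol and chloroform and calls the replicates biological. Columns were matched to genotypes by initial and replicate number. Row names were matched to RefSeq R64 (6047 of 7127 rows, 6038 with the same start and end), and the 55 mitochondrial rows were not tested.

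Rows were filtered with filterByExpr, scaled by TMM (factors 0.972 to 1.03) and tested with edgeR 4.0.16 (R 4.3.3) in 1 quasi-likelihood fit over all 9 libraries with a genotype term. The standard error is the absolute log2 fold change over the square root of F, and 95% intervals use the normal distribution. The common biological coefficient of variation was 9.61%. The procedure was tested on simulated counts. Replicates differed by more than counting noise, so none was treated as a duplicate. Same-numbered libraries did not deviate together, so no block was used.

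The comparison, the 55 gene lists, the ribosomal protein and subtelomeric lists and the naming rule were chosen with earlier results of these data known. Named were the 15 genes per direction with the greatest fold and the 5 with the highest level (at least 5 CPM, groups not overlapping), up to 5 per direction with WT nearer to S228A, the 4 smallest p per list, all COMPASS subunits and the 3 smallest p per row class. Other members were named after their values were seen. Of the lists, 1 is not reported here. Lists share genes and are given by counts and medians without a test. In bulk RNA, fewer cells of a kind and less RNA per cell cannot be told apart.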

Additional observations from a re-analysis of the deposited data

How the results depend on the processing

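With no fold threshold, 1822 rows passed an adjusted p of 0.05 (989 higher and 833 lower in S228E), and with a fold over 2 there were 344 (193 higher and 151 lower). The 15 other alternatives gave 598 to 693 calls, each within 1.5 times of 680: other scaling (RLE, upper quartile, TMM on protein-coding rows), other filters, DESeq2 1.42.0, limma-voom (limma 3.58.1), the 6 libraries alone, a replicate block and leaving out 1 library. DESeq2 shared 670 of the calls and limma-voom 668. Leaving out each library in turn gave 643 to 693 calls, 388 to 424 of them higher and 253 to 269 lower. Same-numbered libraries deviated with correlations of -0.0055, 0.050 and -0.018, so the numbers do not pair them. The fit with the replicate as a block gave 666 calls (403 higher, 263 lower), 658 of them shared.

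Of 278 called rows given by name or as list members, 248 kept their call in every alternative and 30 lost it in 1 or more, mostly rows near the 1.5-fold threshold. Of 106 named rows that were not called, 12 gained a call in 1 or more alternatives. The log2 fold change changed sign in 5 rows that were not called. Over the fits without single libraries SWD2 ranged from -0.10 to 0.0027, LYS2 from -0.021 to 0.098, CLB5 from -0.036 to 0.13, DIG1 from -0.050 to 0.047 and SPO11 from -0.19 to 0.072. DIG1 was also -0.00075 with TMM on protein-coding rows. The causes were not tested. Depth limits low rows, and counting without strand limits overlapping ones.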

Other observations

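Protein-coding genes outside the lists, with the subtelomeric list left aside, numbered 358 of the 680 calls. The genes named here were chosen after their values were seen. Of those higher in S228E, RTT107, a scaffold of replication fork repair, was at 7.02, 5.78 and 9.25 CPM in S228A and 53.6, 48.4 and 50.2 CPM in S228E, a log2 fold change of 2.79 ± 0.14 (adjusted p = 8.25e-09 by edgeR). SPC97 and SPC98, which with gamma-tubulin nucleate microtubules at the spindle pole body, were at log2 2.38 ± 0.15 (adjusted p = 7.19e-08 by edgeR) and 1.93 ± 0.14 (adjusted p = 2.70e-07 by edgeR). MMR1, which carries mitochondria into the bud, was at 28, 27.3 and 26.8 CPM and 113, 100.3 and 101 CPM, a log2 fold change of 1.94 ± 0.07 (adjusted p = 6.23e-10 by edgeR), and VAC17, which carries the vacuole, was described above. SUR7, of the membrane domains called eisosomes, was at log2 1.78 ± 0.08 (adjusted p = 4.42e-09 by edgeR), SVS1 of the wall at 2.58 ± 0.12 (adjusted p = 2.98e-09 by edgeR), and MNN1, a mannosyltransferase of the Golgi, at 1.79 ± 0.09 (adjusted p = 1.26e-08 by edgeR). For each of these genes the S228E values were all above the S228A values.

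Among those lower in S228E, SLT2, the MAP kinase of cell wall integrity, was at 247, 315 and 192 CPM in S228A and 108, 107 and 117 CPM in S228E, a log2 fold change of -1.18 ± 0.17 (adjusted p = 0.000191 by edgeR). PMU1, a putative phosphomutase, was at 313, 368 and 369 CPM and 78.5, 71.5 and 71.4 CPM, a log2 fold change of -2.24 ± 0.11 (adjusted p = 9.36e-09 by edgeR). YDR124W, of unknown role, was at -2.76 ± 0.14 (adjusted p = 9.94e-09 by edgeR), NDJ1 of meiotic telomeres at -1.44 ± 0.11 (adjusted p = 4.39e-07 by edgeR), and RRN11, a subunit of the RNA polymerase I core factor, at -2.25 ± 0.18 (adjusted p = 9.08e-07 by edgeR). ASP3-1, a repeated asparaginase gene, was called higher at log2 5.0 ± 1.44 (adjusted p = 0.0196 by edgeR), but the value comes from 1 library and was 0.21 without S228E replicate 2. It was at 0.404, 48 and 0.832 CPM in the S228E libraries and 0.628, 0.362 and 0.551 CPM in S228A.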
